A study of Homo sapiens with 6 samples.

Results

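Semaphorins and ephrins are guidance cues that steer growing axons and migrating neural crest cells, and plexins, neuropilins and Eph receptors are the receptors that read them. Class 3 semaphorins are secreted and bind a complex of a neuropilin and a plexin A, with *SEMA3E* as an exception that binds *PLXND1* directly, while most other semaphorins are anchored in the membrane and bind plexins alone. Ephrin-A ligands are tied to the membrane by a lipid anchor and mainly bind EphA receptors, ephrin-B ligands span the membrane and mainly bind EphB receptors, and the receptor *EPHA4* binds both kinds. Sympathetic neuroblasts, the cells from which neuroblastoma arises, descend from neural crest cells that migrate under these cues.

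The genes described here were all genes annotated as protein-coding whose symbols begin with SEMA, PLXN, EPHA, EPHB, EFNA or EFNB and a family letter or number, together with *NRP1* and *NRP2*. The rule itself uses names and no measured value, but it was set with earlier results of these data known. It gave 54 identifiers among 60651 in the count tables, of which 29 are ligands (20 semaphorins and 9 ephrins) and 25 are receptors (9 plexins, 2 neuropilins and 14 Eph receptors). One of the 9 ephrin identifiers, *EFNA4-EFNA3*, is a readthrough of 2 neighbouring genes and shares its reads with both.

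Total RNA was sequenced from 6 libraries of a human neuroblastoma cell line after enzymatic removal of ribosomal RNA, 3 with EtOH (ethanol, the vehicle) and 3 with Tet (tetracycline, given for 5 days) in their titles. The labels did not agree on the cell model. The titles named IMR-5/75, a line with amplified *MYCN*, and a tag called the groups control and induction under the word knockdown. The growth protocol was instead for SK-N-SH cells with a tetracycline-inducible *MYCN* construct, grown as single clones under G418 and blasticidin, and the study's own models were SK-N-AS cells with inducible *MYCN* and IMR-5/75 cells with an inducible *MYCN* shRNA. Libraries are therefore called EtOH or Tet by the title alone, and values of single libraries are given in the order of replicates 1, 2 and 3. Differences on the log2 scale are Tet over EtOH, with ± for the SE of the fit. No change of *MYCN* RNA was detected (-0.07 ± 0.23 on the log2 scale, edgeR adjusted p = 0.956, and -0.22 to 0.21 in fits without 1 library). Each direction below therefore compares the labels, and whether they differ in *MYCN* state is not known from these libraries. The study's methods checked the IMR-5/75 knockdown by western blotting of MYCN, and no protein was measured here. The labels do not say whether the 3 libraries of a label were separate cultures. The study's methods speak of independent biological replicates for its in vitro work in general, without naming these libraries, and p-values measure the spread between them.

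The libraries held between 27933378 and 40498065 counts, and 3 counts corresponded to between 0.0741 and 0.107 CPM (counts relative to the library's own total). Markers of noradrenergic neuroblasts were present, with 6 of 8 at 1 TPM (a level per length of transcript, scaled to a common total) or more and a summed level of 559 to 607 TPM in EtOH libraries and 623 to 744 TPM in Tet libraries. Of these markers the enzymes *DBH* and *TH*, which make noradrenaline, were too low to be tested. EtOH replicate 2 and Tet replicate 2 stood apart from the other libraries along the first principal component, which held 44.7% of the variance and did not separate the labels. Tet replicate 3 stood apart in genes rich in G and C. Mesenchymal-state markers were present as well, with 7 of 8 at 1 TPM or more. Their summed level ranged from 123 to 240 TPM in EtOH libraries and from 109 to 167 TPM in Tet libraries. At an edgeR unadjusted p under 0.05, 3 of 6 noradrenergic markers tested were higher in Tet libraries. Of 7 mesenchymal-state markers tested, *SNAI2* was higher and *PRRX1* lower at that level, which 10.8% of all genes reached. In both lists 0 markers had an adjusted p under 0.05. The summed level of 4 endothelial markers was at most 0.380 TPM in any library, that of 5 Schwann cell precursor markers at most 2.57 TPM with *S100B* at 0, and that of 3 leukocyte markers at most 0.664 TPM with *CD3E* at 0. The part of these cell states in the results below was not tested.

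The summed level of all members was nearly the same under both labels, at 209 ± 14.2 TPM in EtOH libraries and 206 ± 24.6 TPM in Tet libraries (SD over 3 libraries a label). Ligands made up most of it, with 132 ± 4.44 and 132 ± 13.2 TPM, against 76.2 ± 9.85 and 73.8 ± 14.0 TPM for receptors. A few members carried most of the signal. Of the 54, 26 had a mean of at least 1 TPM over the 6 libraries, and the ephrin *EFNA5*, its receptor *EPHA7* and the transmembrane semaphorins *SEMA6D* and *SEMA6A* led the list.

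**Figure D1:**
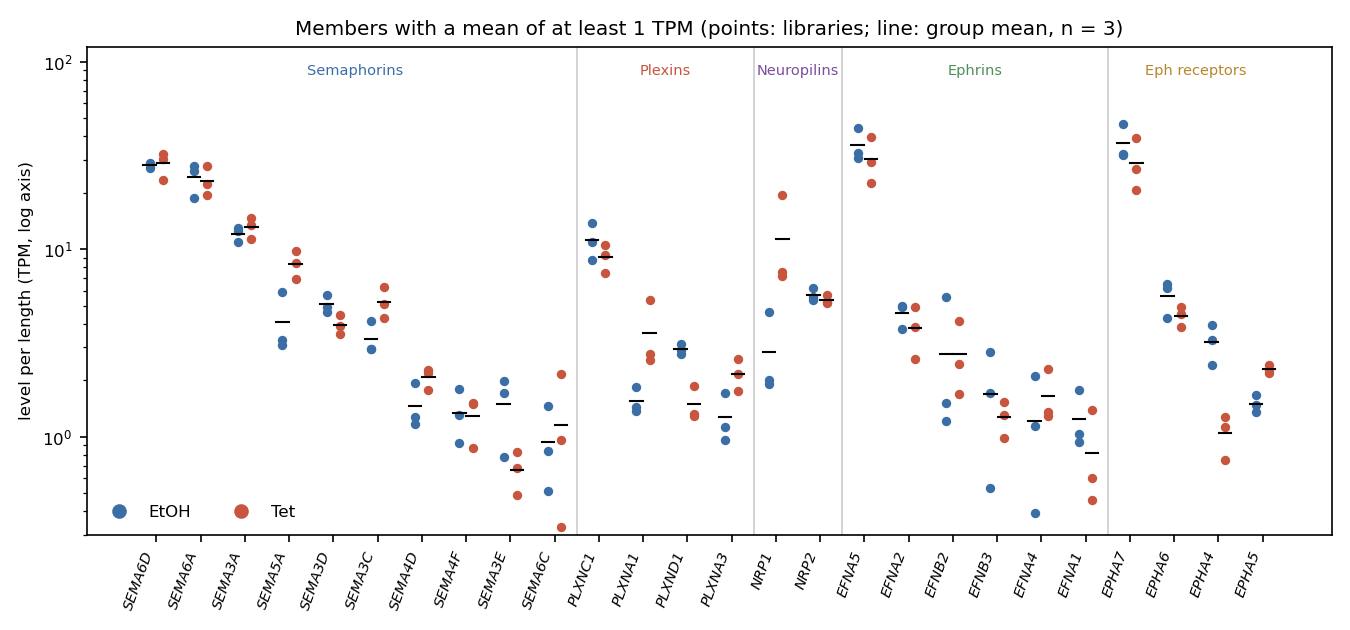
Level of each member with a mean of at least 1 TPM, on a log axis, by family; points are libraries (blue, EtOH; red, Tet) and lines are group means (n = 3). *EFNA5*, *EPHA7*, *SEMA6D* and *SEMA6A* lie highest under both labels, and *NRP1* has its 3 points labelled Tet above its 3 points labelled EtOH.

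*EFNA5*, a glycolipid-anchored ephrin, had 30.6, 44.2 and 32.5 TPM in replicates 1, 2 and 3 with EtOH and 29.2, 39.7 and 22.5 TPM in the same order with Tet. The EphA receptor *EPHA7* had 31.8, 46.4 and 32.3 TPM, then 26.8, 39.4 and 20.8 TPM. Both genes were highest in replicate 2 of either label and the labels overlapped, so the order of these top 2 is not resolved. *EFNA5* took 75.3% ± 1.70 of the summed ephrin level in EtOH libraries and 73.3% ± 4.49 in Tet libraries (SD over 3 libraries a label). *EPHA7* took 73.8% ± 6.80 and 73.2% ± 8.71 of the summed Eph receptor level. Each of these families was thus dominated by 1 gene under both labels.

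Semaphorins were spread over more genes. *SEMA6D* had 28.2 ± 1.06 and 28.7 ± 4.56 TPM (SD over 3 libraries a label), and *SEMA6A*, a ligand of *PLXNA2* and *PLXNA4*, had 24.2 ± 4.80 and 23.2 ± 4.22 TPM. The secreted repellent *SEMA3A* followed with 12.1 ± 1.04 and 13.1 ± 1.68 TPM, apart from *SEMA6A* by more than these SDs. Among plexins, *PLXNC1*, a receptor of *SEMA7A*, stood highest with 11.2 ± 2.54 and 9.12 ± 1.55 TPM, while *SEMA7A* itself was too low to be tested. *NRP2* had 5.72 ± 0.458 and 5.37 ± 0.273 TPM, the Eph receptor *EPHA6* 5.67 ± 1.20 and 4.42 ± 0.545 TPM, and the ephrin *EFNA2* 4.55 ± 0.688 and 3.79 ± 1.17 TPM, the last 2 of which lay within each other's spread. *EFNB2*, which binds EphB receptors and *EPHA4*, had 2.77 ± 2.45 and 2.77 ± 1.27 TPM. No difference between the labels was detected for 8 of these members: *EFNA5*, *EPHA7*, *SEMA6D*, *SEMA6A*, *SEMA3A*, *PLXNC1*, *NRP2* and *EPHA6* had log2 fold changes between -0.30 and 0.18, with edgeR adjusted p-values between 0.748 and 0.998.

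The main comparison asked which members differed between Tet libraries and EtOH libraries. After the filter on low counts, 39 of 54 members were tested, 21 ligands and 18 receptors. No member passed an adjusted p-value of 0.05 in edgeR (0 of 39), where 0.236% of 22443 genes tested did, and limma-voom also called 0. DESeq2, run with its default settings and without this filter, called 3 members higher and 1 lower. Over all genes it called 485 of 40467. Without this filter edgeR called the same members, and 302 of 40467 genes in all. At an unadjusted p under 0.05 there were 10 members, 7 higher and 3 lower in Tet libraries, which is 25.6% of those tested against 10.8% of all genes tested. With all libraries, 5.83% of all genes were higher and 4.94% lower at that level. Without Tet replicate 3 the members were 5 higher and 4 lower, and without EtOH replicate 2 they were 8 and 4. The shares of all genes at that level in these refits are not reported here, so these counts have no background beside them. Without EtOH replicate 2, 692 of 23935 genes passed the adjusted threshold, against 53 of 22443 with all libraries. The libraries of the labels did not overlap for 9 members (6 higher, 3 lower), or 23.1%, against 17.5% of all genes. In these bulk samples, fewer cells of a type and less RNA per cell cannot be told apart.

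**Figure D2:**
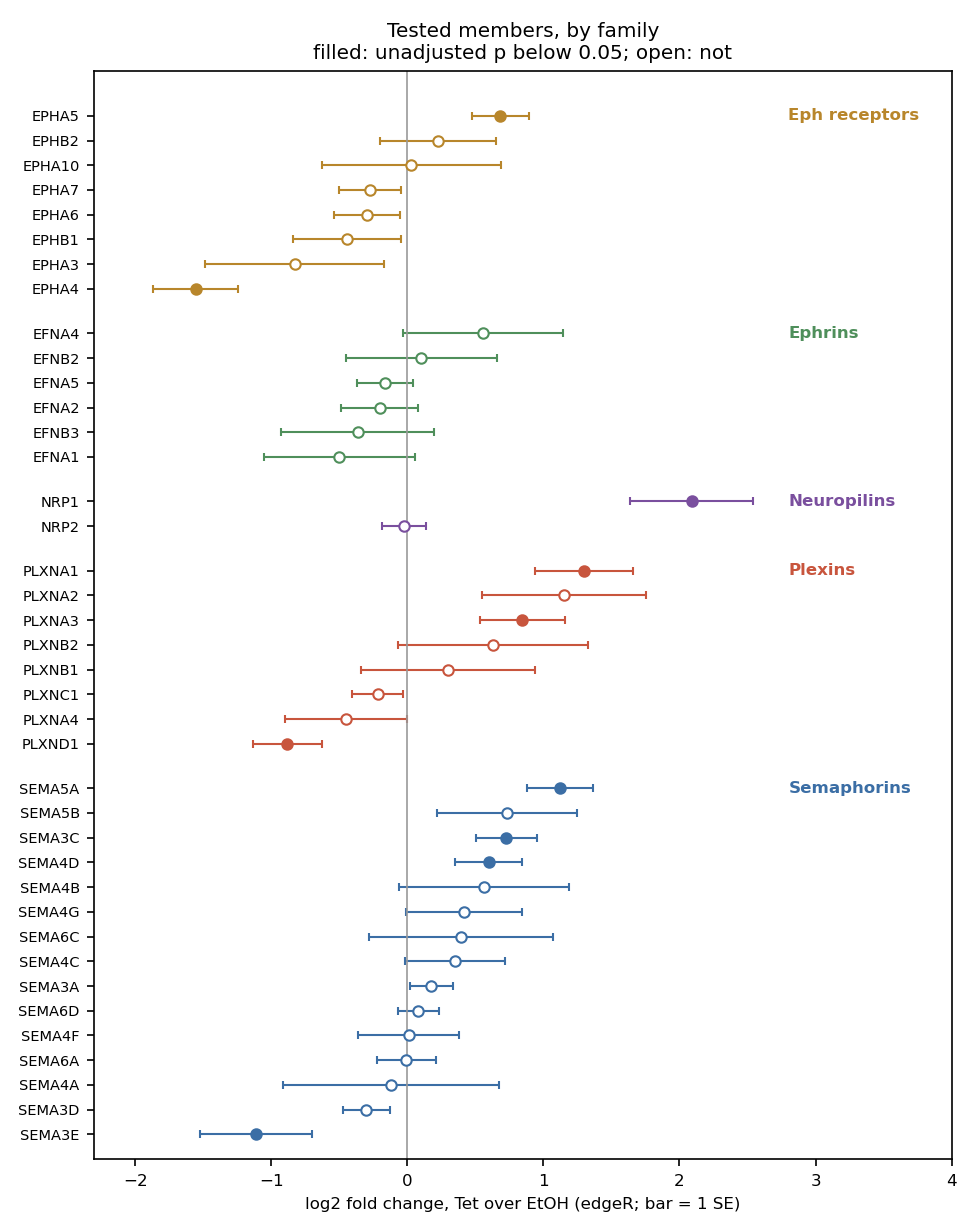
Log2 fold change of the 39 tested members, Tet over EtOH, with bars of 1 SE from edgeR, grouped by family; filled points had an unadjusted p under 0.05. The 10 filled points run from -1.56 for *EPHA4* to 2.09 for *NRP1*, and 0 of the 6 ephrins are among them.

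Ligands and receptors were then set side by side. Of 18 receptors tested, 6 (33.3%) had an unadjusted p under 0.05 (*NRP1*, *PLXNA1*, *PLXNA3* and *EPHA5* higher, *EPHA4* and *PLXND1* lower), and the labels did not overlap for the same 6. Of 21 ligands tested, 4 (19.0%) had such a p (*SEMA5A*, *SEMA3C* and *SEMA4D* higher, *SEMA3E* lower), and the labels did not overlap for 3 ligands (14.3%). The 3 were *SEMA5A*, *SEMA3C* and *SEMA3D*. Over all genes tested, 10.8% had such a p and the labels did not overlap for 17.5%. The share of ligands whose labels did not overlap was near that of all genes. The median log2 fold change was 0.10 for ligands and 0.003 for receptors, beside -0.006 for all genes, and the difference of the medians, 0.10, was smaller than the spread between replicates (SD 0.254). That spread was combined from the SDs of the 2 medians between libraries of a label. It treats the 2 as independent, although both come from the same libraries, and the spread of their difference within a library was not measured. By family the medians were 0.35 for the 15 semaphorins tested, 0.46 for the 10 plexins and neuropilins, -0.18 for the 6 ephrins and -0.29 for the 8 Eph receptors. The first 2 of these rested on Tet replicate 3: without it they were -0.03 for semaphorins and -0.10 for plexins and neuropilins, against -0.04 for all genes, and the others were -0.03 for ephrins and -0.33 for Eph receptors. Without EtOH replicate 2 the median of the semaphorins was 0.09. Over ligands and receptors the medians without Tet replicate 3 were -0.03 and -0.27. These counts and medians are descriptions of the families, and no test was made over them.

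The stretch upstream of the gene start was read for members that had an entry in a RefSeq promoter table for GRCh38.p14. Of the members, 48 had at least 1 entry, with 75 entries in all. The MYCN protein binds E-boxes, and the canonical one, CACGTG, which reads the same on both strands, was present within 250 bases before the start in 4 of the 75 (5.33%) and in 6.34% of all 35116 entries. The members with it were *SEMA3E*, *SEMA4D*, *SEMA6D* and *EPHA8*. A match describes letters only, since no binding was measured here. The sequences of *SEMA5A* and *EPHA4*, the ligand and the receptor with the lowest p-values, and of *SEMA3E*, which holds the E-box (in capitals), are shown 5′ to 3′ on the strand of the gene. Each ends at the base before the gene start given in the count tables.
SEMA5A, chr5:9546076-9546325, minus strand: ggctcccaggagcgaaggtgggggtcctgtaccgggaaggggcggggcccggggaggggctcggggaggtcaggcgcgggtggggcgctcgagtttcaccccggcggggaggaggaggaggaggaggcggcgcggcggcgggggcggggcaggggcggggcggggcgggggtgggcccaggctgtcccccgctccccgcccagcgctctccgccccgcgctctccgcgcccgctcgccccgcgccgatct
EPHA4, chr2:221574203-221574452, minus strand: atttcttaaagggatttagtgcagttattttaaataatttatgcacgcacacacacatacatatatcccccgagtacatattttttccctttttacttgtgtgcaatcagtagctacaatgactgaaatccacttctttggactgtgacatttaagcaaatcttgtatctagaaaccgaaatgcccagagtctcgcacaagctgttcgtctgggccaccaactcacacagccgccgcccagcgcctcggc
SEMA3E, chr7:83649140-83649389, minus strand: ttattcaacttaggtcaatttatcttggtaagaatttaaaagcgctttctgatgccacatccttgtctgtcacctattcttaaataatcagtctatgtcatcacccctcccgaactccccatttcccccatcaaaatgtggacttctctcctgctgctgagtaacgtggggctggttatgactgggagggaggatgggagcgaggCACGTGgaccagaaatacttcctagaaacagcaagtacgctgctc
The windows differ in composition. That of *SEMA5A* has 82% G and C with 33 CG pairs, that of *EPHA4* 43.2% with 9, and that of *SEMA3E* 46.4% with 6, with its E-box beginning 45 bases before the start.

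*NRP1* had the largest fitted difference of the 39 tested members. It encodes the neuropilin that, with a plexin A, binds *SEMA3A* and, together with *NRP2*, other class 3 semaphorins, and that also binds VEGF. Its level was 8.15, 18.0 and 8.50 CPM in replicates 1, 2 and 3 with EtOH and 29.6, 82.1 and 35.6 CPM in the same order with Tet. Every Tet library lay above every EtOH library, and replicate 2 was the highest within both labels. The difference was 2.09 ± 0.45 on the log2 scale (edgeR adjusted p = 0.129), or 4.25-fold higher. It was 1.497 without Tet replicate 2 and 2.57 without EtOH replicate 2, where it passed the threshold (edgeR adjusted p = 0.0178). In other fits without 1 library its edgeR adjusted p was up to 0.506. Of the exon bases of *NRP1* (ENSG00000099250.18, GRCh38 chromosome 10, 33177492 to 33336262, minus strand), 4.87% are shared with an antisense gene, and reads there were divided without regard to strand.

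The other neuropilin, *NRP2*, had nearly equal levels under the labels, at 28.6 ± 3.49 CPM in EtOH libraries and 28.1 ± 1.39 CPM in Tet libraries (SD, 3 libraries a label; -0.02 ± 0.16 on the log2 scale, edgeR adjusted p = 0.981). The ratio of *NRP1* to *NRP2* within a library, per length, was 0.307, 0.866 and 0.359 in replicates 1, 2 and 3 with EtOH and 1.27, 3.70 and 1.45 in the same order with Tet. *NRP2* was thus the more abundant neuropilin in each EtOH library and *NRP1* in each Tet library. The share of *NRP1* in the summed level of both was 32.1% ± 12.5 and 64.7% ± 12.3 (SD over 3 libraries a label). The summed level itself was 8.56 ± 1.24 TPM in EtOH libraries and 16.7 ± 6.82 TPM in Tet libraries.

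**Figure D3:**
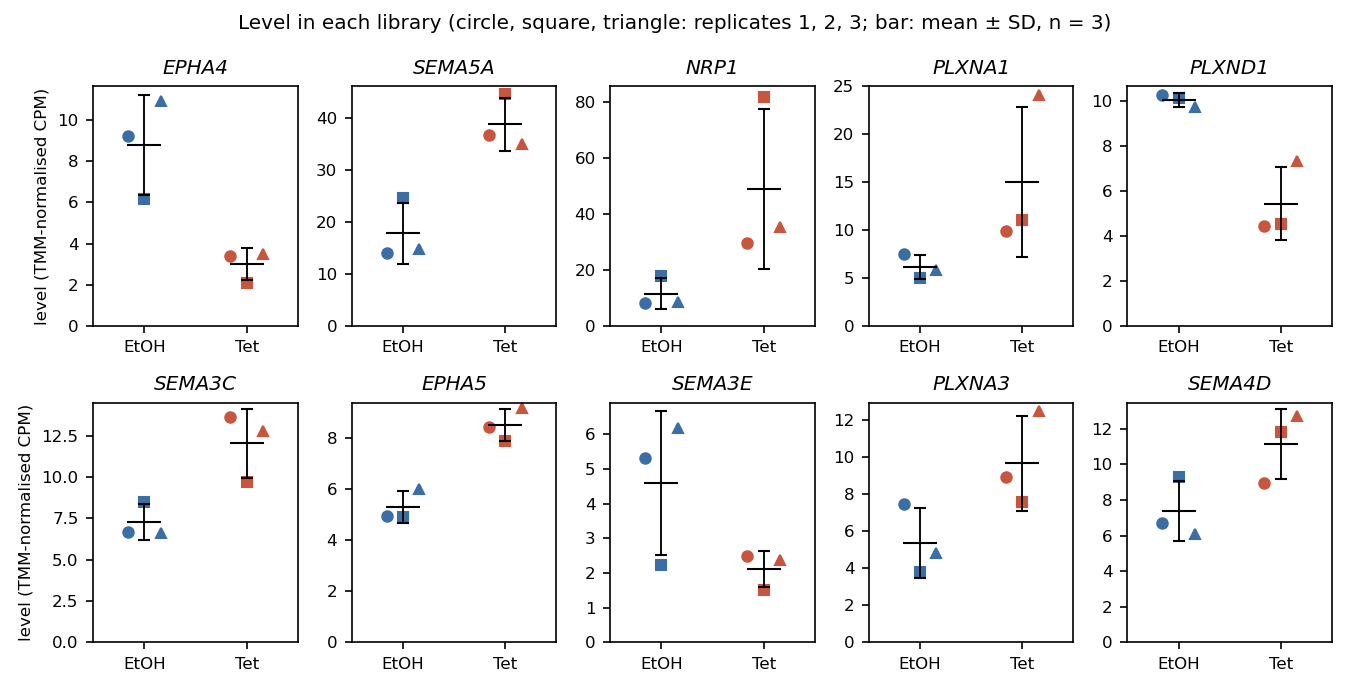
Level of the 10 members with an unadjusted p under 0.05, in TMM-normalised CPM, for each library; bars are the mean ± SD (n = 3) and the symbols mark replicates 1, 2 and 3. The labels overlap for *SEMA3E* and *SEMA4D* and are apart for the other 8, and *PLXNA1* in Tet replicate 3 and *NRP1* in Tet replicate 2 lie well above the other libraries of their label.

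The class 3 semaphorins, ligands of these neuropilins, had differences of both signs. *SEMA3C*, which binds both neuropilins (ENSG00000075223.14, chromosome 7, 80742538 to 80922359, minus strand), had 6.67, 8.51 and 6.61 CPM in EtOH libraries and 13.6, 9.67 and 12.8 CPM in Tet libraries. The labels did not overlap, although the nearest libraries were replicates 2 of each, at 8.51 and 9.67 CPM (0.73 ± 0.22 on the log2 scale, edgeR adjusted p = 0.273). *SEMA3E* (ENSG00000170381.14, chromosome 7, 83363238 to 83649139, minus strand) had 5.33, 2.24 and 6.18 CPM and then 2.48, 1.52 and 2.37 CPM, so that EtOH replicate 2 lay within the range of the Tet libraries. Its difference was -1.11 ± 0.41 on the log2 scale (edgeR adjusted p = 0.373), and without EtOH replicate 2 it was -1.43 and past the threshold (edgeR adjusted p = 0.0335). In other fits without 1 library the edgeR adjusted p of *SEMA3E* was up to 0.843. *SEMA3D*, at 14.7 ± 0.866 and 11.9 ± 0.661 CPM, was lower in each Tet library, by a small amount (-0.30 ± 0.17 on the log2 scale, edgeR adjusted p = 0.594). *SEMA3A* had 40.4 ± 5.29 and 45.6 ± 2.54 CPM (0.18 ± 0.16 on the log2 scale, edgeR adjusted p = 0.777). *SEMA3B*, *SEMA3F* and *SEMA3G* were too low to be tested.

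*PLXND1*, the receptor of *SEMA3E*, was in each Tet library below each EtOH library. It (ENSG00000004399.13, chromosome 3, 129555214 to 129606676, minus strand) had 10.3, 10.1 and 9.72 CPM in EtOH libraries and 4.47, 4.54 and 7.32 CPM in Tet libraries. The 3 EtOH libraries lay close together and above all 3 Tet libraries, among which replicate 3 was the highest (-0.88 ± 0.25 on the log2 scale, edgeR adjusted p = 0.240). Without Tet replicate 3 the log2 fold change was -1.15. The ligand and its receptor thus both had negative differences, neither of them past the adjusted threshold with all libraries.

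Among the plexin A receptors, which signal for neuropilins, *PLXNA1* (ENSG00000114554.11, chromosome 3, 126988594 to 127037392, plus strand) had 7.50, 5.05 and 5.79 CPM in EtOH libraries and 9.93, 11.1 and 24.1 CPM in Tet libraries. The labels did not overlap, and Tet replicate 3 stood far above the other 5 libraries. The difference was 1.30 ± 0.36 on the log2 scale (edgeR adjusted p = 0.224), and 0.78 without that library. *PLXNA3* (ENSG00000130827.6, chromosome X, 154458281 to 154477779, plus strand) had 7.48, 3.82 and 4.83 CPM and then 8.93, 7.56 and 12.5 CPM, which left a narrow gap between 7.48 and 7.56 CPM (0.84 ± 0.31 on the log2 scale, edgeR adjusted p = 0.377, and 0.62 without Tet replicate 3). Within a library, the ratio of *PLXNA1* to *PLXND1* per length was 0.637, 0.435 and 0.520 in EtOH libraries and 1.94, 2.13 and 2.87 in Tet libraries. *PLXND1* was the more abundant of these plexins in each EtOH library, and *PLXNA1* in each Tet library.

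Outside class 3, *SEMA5A*, a transmembrane semaphorin with thrombospondin repeats, had the lowest p-value of any ligand. It (ENSG00000112902.12, chromosome 5, 9035033 to 9546075, minus strand) had 14.1, 24.6 and 14.9 CPM in EtOH libraries and 36.8, 44.5 and 34.9 CPM in Tet libraries. The labels did not overlap, replicate 2 was the highest in both, and the gene was 2.17-fold higher with Tet (1.12 ± 0.24 on the log2 scale, edgeR adjusted p = 0.128). Without EtOH replicate 2 the log2 fold change was 1.43, past the threshold (edgeR adjusted p = 0.00721). In other fits without 1 library the edgeR adjusted p of *SEMA5A* was up to 0.549. *SEMA4D*, the ligand of *PLXNB1* (ENSG00000187764.12, chromosome 9, 89360787 to 89498130, minus strand), had 6.72, 9.27 and 6.08 CPM and then 8.93, 11.8 and 12.7 CPM, with EtOH replicate 2 above Tet replicate 1 (0.60 ± 0.25 on the log2 scale, edgeR adjusted p = 0.429). *SEMA6A* and *SEMA6D*, the most abundant semaphorins, had log2 fold changes of -0.01 and 0.08.

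Of the Eph receptors, *EPHA4* had the lowest p-value among members. It (ENSG00000116106.12, chromosome 2, 221418027 to 221574202, minus strand) had 9.23, 6.17 and 10.9 CPM in EtOH libraries and 3.40, 2.09 and 3.47 CPM in Tet libraries. The labels did not overlap, replicate 2 was the lowest in both, and the gene was 2.94-fold lower with Tet (-1.56 ± 0.31 on the log2 scale, edgeR adjusted p = 0.101). *EPHA5*, another receptor of *EFNA5*, differed the other way (ENSG00000145242.14, chromosome 4, 65319563 to 65670495, minus strand), with 4.94, 4.91 and 6.02 CPM and then 8.44, 7.90 and 9.16 CPM (0.68 ± 0.21 on the log2 scale, edgeR adjusted p = 0.276). The labels did not overlap for *EPHA5* either, although 5.44% of its exon bases are shared with *EPHA5-AS1* on the other strand. The ratio of *EPHA5* to *EPHA4* per length was 0.411, 0.611 and 0.424 in EtOH libraries and 1.90, 2.90 and 2.03 in Tet libraries. *EPHA4* was thus the more abundant of this pair in each EtOH library and *EPHA5* in each Tet library, while *EPHA7* was above both in all 6. *EPHA4* took 6.68% ± 2.19 of the summed Eph receptor level with EtOH and 2.83% ± 1.09 with Tet, and *EPHA5* 3.06% ± 0.51 and 6.06% ± 1.33 (SD over 3 libraries a label).

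**Figure D4:**
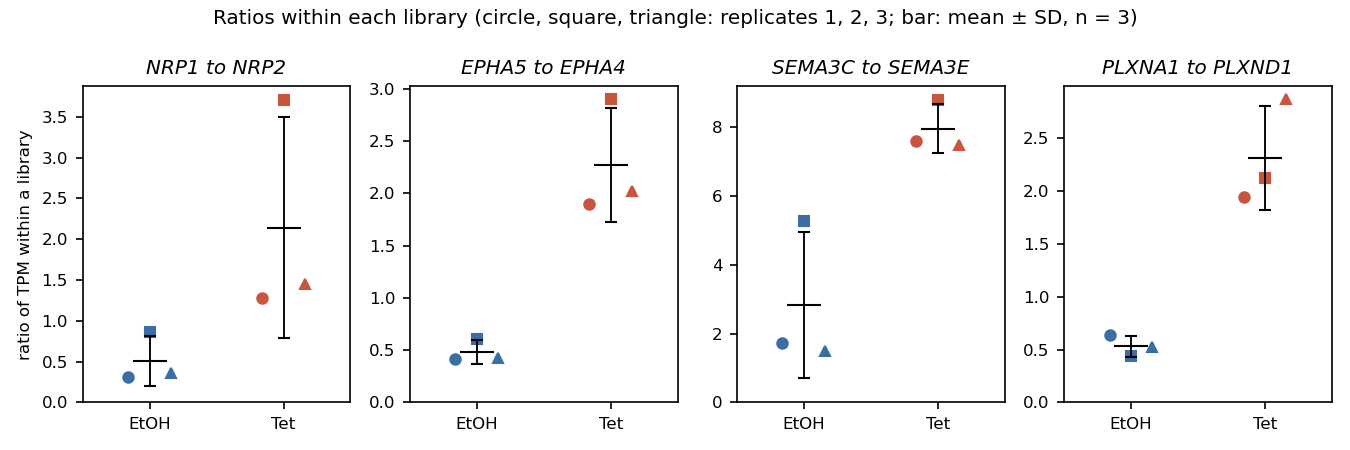
Ratio of the levels (TPM) of 2 members within each library for 4 pairs; bars are the mean ± SD (n = 3). For *NRP1* to *NRP2*, *EPHA5* to *EPHA4* and *PLXNA1* to *PLXND1* the ratio was below 1 in each EtOH library and above 1 in each Tet library, and for *SEMA3C* to *SEMA3E* it was above 1 in all 6.

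The 4 pairs of these ratios were chosen after their values were seen, so the ratios are given with no test. For the remaining pair, *SEMA3C* to *SEMA3E*, the ratio was 1.73, 5.27 and 1.48 in EtOH libraries and 7.60, 8.80 and 7.50 in Tet libraries. EtOH replicate 2 lay nearest to the Tet libraries in this ratio and in those of the neuropilins and of the Eph receptors.

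Among ephrins no difference between the labels was detected. Of 9 identifiers 6 were tested, 0 had an unadjusted p under 0.05 and 0 had labels that did not overlap. *EFNA5* and *EFNA2* had log2 fold changes of -0.16 (SE 0.21) and -0.20 (SE 0.28), and *EFNB2* one of 0.10 with the widest error of the 3 (SE 0.56). *EFNB2* ranged from 1.21 to 5.59 TPM in EtOH libraries alone, with replicate 2 the highest, and its log2 fold change was 1.05 without that library (edgeR adjusted p = 0.152) and -0.30 without Tet replicate 2. An antisense gene covers 36.4% of the exon bases of *EFNB2*, and reads there were divided without regard to strand. The 15 members that did not pass the filter were *SEMA3B*, *SEMA3F*, *SEMA3G*, *SEMA6B*, *SEMA7A*, *PLXNB3*, *EFNA3*, *EFNA4-EFNA3*, *EFNB1*, *EPHA1*, *EPHA2*, *EPHA8*, *EPHB3*, *EPHB4* and *EPHB6*.

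Levels moved with base composition in 2 libraries. Of the 17 tested members whose exons hold at least 55% G and C, 12 (70.6%) had their highest level of all 6 libraries in Tet replicate 3, against 2 of 22 members (9.09%) with less. Over all genes tested the shares were 58.8% of 3278 and 14.8% of 19165. EtOH replicate 2 was the lowest EtOH library for 12 of the 17 members (70.6%) and for 10 of the 22 (45.5%), and over all genes for 58.5% and 43.6%. *PLXNA1* (61.2% G and C), *PLXND1* (60.8%) and *PLXNA3* (57.9%) belong to the first class, whereas *NRP1* (43.5%), *SEMA5A* (45.7%) and *EPHA4* (45.0%) do not. With a correction for this content, added after seeing the data, the log2 fold change was 0.91 for *PLXNA1*, 0.73 for *PLXNA3* and -1.19 for *PLXND1*, and it was 2.11 for *NRP1*, 1.12 for *SEMA5A* and -1.54 for *EPHA4*. The direction was kept for all 6 of these genes.

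**Figure D5:**
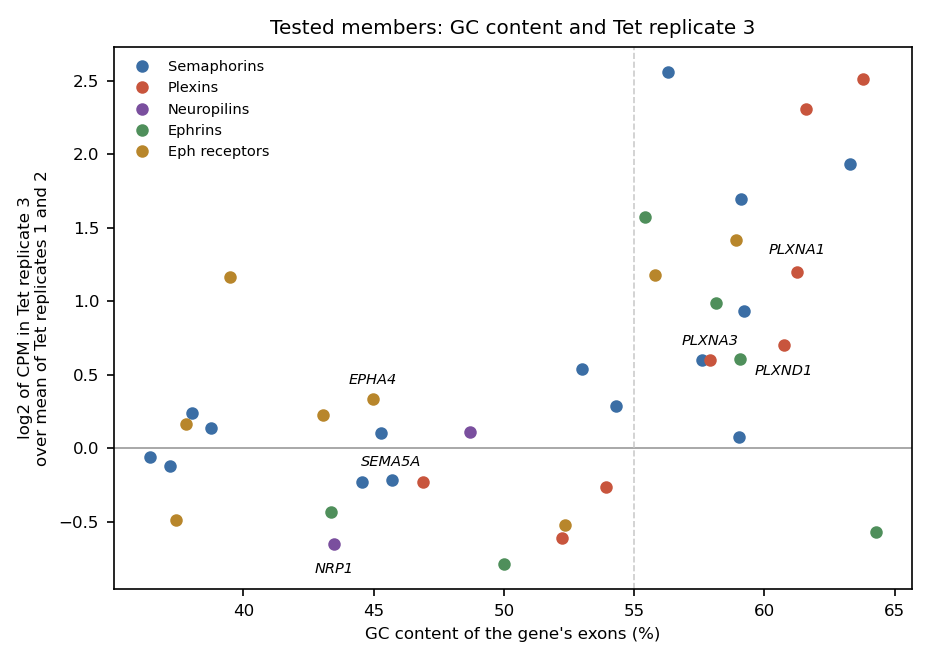
For each of the 39 tested members, the GC content of its exons (horizontal axis, percent) and the log2 ratio of its CPM in Tet replicate 3 to the mean of Tet replicates 1 and 2 (vertical axis); the dashed line marks 55%. Of the 17 members to the right of it 16 lie above 0 (median 1.18), and of the 22 to the left 10 do (median -0.09).

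Whether a member passed the adjusted threshold depended on how the counts were handled. *NRP1*, *SEMA5A* and *EPHA4* each passed in 3 of 14 alternatives (no filter on low counts, DESeq2, and leaving out EtOH replicate 2), *PLXNA1* passed in 2 and *SEMA3E* in 1. The other 5 of the 10 members passed in 0 of these 14. The direction of all 10 was the same in all 14. A replicate block, which is not among the 14, also called *NRP1*, *SEMA5A* and *EPHA4*.

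Of genes that act with semaphorin and Eph receptors inside the cell, 49 of 55 listed were tested and 0 passed the adjusted threshold in edgeR (2 in DESeq2, 0 in limma-voom), with 5 (10.2%) at an unadjusted p under 0.05, all higher in Tet libraries. That share is near the 10.8% of all genes. *KALRN*, which ephrin-B signalling uses in dendritic spines, came nearest, with 62.5, 61.0 and 64.2 CPM in EtOH libraries and 114, 131 and 105 CPM in Tet libraries (0.90 ± 0.15 on the log2 scale, edgeR adjusted p = 0.0611). The labels were clearly apart. *L1CAM*, a cell adhesion molecule that pairs with *NRP1* in the response to *SEMA3A*, had 7.30 ± 2.47 and 16.4 ± 5.92 CPM (SD, 3 libraries a label; 1.16 ± 0.34 on the log2 scale, edgeR adjusted p = 0.249). Tet replicate 3 was the highest, and without it the log2 fold change was 0.83. *DPYSL2*, which encodes the collapsin response mediator CRMP2, had 243 ± 73.0 and 398 ± 70.4 CPM (0.72 ± 0.23 on the log2 scale, edgeR adjusted p = 0.297).

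Other guidance families were listed for comparison. Of 11 netrin, DCC and UNC5 genes tested, 1 passed the adjusted threshold, the netrin receptor *UNC5D*. It had 13.9, 11.6 and 12.5 CPM in EtOH libraries and 3.69, 1.35 and 2.34 CPM in Tet libraries (-2.37 ± 0.35 on the log2 scale, edgeR adjusted p = 0.0464). Leaving out any 1 library other than EtOH replicate 2 ended this call, as did a minimum of 10 counts in every library, with an edgeR adjusted p of up to 0.229. A further 4 of the 11 were higher at an unadjusted p under 0.05. The netrin antagonist *DRAXIN* had 1.16 ± 0.651 and 9.79 ± 5.54 CPM (3.09 ± 0.52 on the log2 scale, edgeR adjusted p = 0.0656). *NTNG1*, a membrane-anchored netrin, had 6.03 ± 2.29 and 20.6 ± 2.62 CPM (1.78 ± 0.28 on the log2 scale, edgeR adjusted p = 0.0587). Neither gene had overlapping labels. Of 8 SLIT and ROBO genes tested, 0 passed the adjusted threshold and 4 were higher at an unadjusted p under 0.05, among them the axon receptor *ROBO2* with 41.8 ± 5.77 and 75.2 ± 1.97 CPM (0.85 ± 0.16 on the log2 scale, edgeR adjusted p = 0.0818). The ligand *SLIT2* and the ROBO effector *SRGAP1* had differences of 0.49 ± 0.15 and 0.40 ± 0.14. Over all genes tested, 0.236% passed the adjusted threshold and 5.83% were higher at an unadjusted p under 0.05. The lists of both families were chosen with earlier results of these data known. Whether these families differ from semaphorin and Eph genes in how often they changed was not tested. Over both families DESeq2 called 5 genes and limma-voom 2, where over all genes they called 485 of 40467 and 58 of 22443.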

How the data were processed

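RNA of 6 libraries was compared, grouped by the EtOH or Tet in their titles. According to the headers of the deposited tables, the authors counted unique STAR alignments of trimmed reads over the exons of each gene with featureCounts 1.6.4, on GRCh38, dividing read pairs that overlapped several genes and ignoring strand. The submitters' processing notes name STAR 2.7.1a and featureCounts 1.5.1, and the study's methods give other options, which use strand. The deposited values are thus estimated counts, not scaled for depth, and 12.3% to 14.7% of them per library were not whole. The 92 spike-in rows, all at 0, were left out. Symbols were found for 99.7% of identifiers.

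The planned test assumed whole counts, so estimated counts were rounded. Genes were kept with filterByExpr, scaled by TMM and tested by quasi-likelihood F tests (edgeR 4.0.16, R 4.3.3), with Benjamini-Hochberg adjustment over all 22443 genes and a threshold of 0.05. The SE is the log2 fold change divided by the square root of F. CPM are TMM-normalised, and TPM were computed from the counts and the exon length in the tables. Levels of different genes are compared only as TPM. The steps were also run on simulated counts drawn independently for each library. Those counts held no effect of a replicate number or of base composition, so they cannot show how the steps handle such effects.

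Alternatives were RLE and upper quartile scaling, no filter, at least 10 counts in every library, DESeq2 1.42.0, limma 3.58.1 with voom, no mitochondrial genes, a replicate block, leaving out each library, and, added after seeing the data, a correction for GC content over 20 bins. With CPM in place of TPM, *EPHA7* had rank 1 and *EFNA5* rank 4. Members and gene lists were chosen with earlier results of these data known. Named were members with an unadjusted p under 0.05, the 3 most abundant of each class, untested members, and, of the partner list and each other guidance family, genes past the threshold or among the 3 with the lowest p.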

Additional observations from a re-analysis of the deposited data

How the results depend on the processing

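Of the refitted log2 fold changes of single genes, 406 kept their direction and their side of the threshold, 38 passed it in addition, 6 no longer passed it (all of *UNC5D*) and 15 changed sign. Members past the adjusted threshold were 3 higher and 1 lower without a filter on low counts and with DESeq2, against 0 and 0. Between fits without 1 library they ranged from 0 to 2 in each direction, and members at an unadjusted p under 0.05 from 4 to 8 higher and from 2 to 4 lower. The adjusted calls among these came only without EtOH replicate 2, where 692 genes passed in all, against 53, and without any other library at most 2 did. The lowest count at an unadjusted p, 4 higher, was without EtOH replicate 3. Shares of all genes at an unadjusted p under 0.05 in these fits are not reported here. Over all genes 302 of 40467 passed without a filter, 485 of 40467 with DESeq2 and 125 with the GC correction, which was chosen after seeing the data. Pathway partners past the threshold numbered 1 without a filter, 2 with DESeq2, 1 with the GC correction and 0 to 2 between fits without 1 library. Genes of the other guidance families numbered 4 without a filter, 0 with at least 10 counts in every library, 5 with DESeq2, 2 with limma-voom, 2 with the GC correction and 0 to 7 between fits without 1 library. The median log2 fold change ranged from -0.0278 to 0.24 for ligands and from -0.27 to 0.21 for receptors between those fits, and their difference from 0.03 to 0.25.

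Sign changes were found in genes near 0. *SEMA6A* was at 0.00614 with upper quartile scaling, at 0.00583 with limma-voom, at 0.0218 with the GC correction, and between -0.19 and 0.12 in fits without 1 library. *NRP2* was at 0.0215 with the GC correction and between -0.10 and 0.0459 in those fits, *EFNB2* between -0.30 and 1.05 and *MYCN* between -0.22 and 0.21. The labels do not say whether same-numbered libraries were handled together, and the main fit had no replicate block. The deviations of same-numbered libraries correlated at 0.0603, 0.510 and 0.219 for replicates 1, 2 and 3. Replicates 2 thus deviated together more than the others did. With the replicate block, 2 members were higher (*NRP1*, *SEMA5A*) and 1 lower (*EPHA4*) past the adjusted threshold, with 3 pathway partners, 7 genes of the other guidance families and 675 of all genes, and *SEMA6A* was at 0.0115. The cause of these shifts was not tested. At 0.0741 to 0.107 CPM for 3 counts, the depth does not resolve members that were left untested.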
